A study of Mus musculus with 18 samples.

Results

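ERV1 endogenous retrovirus loci were measured in *Atrx* wild type (WT) and knockout (KO) C3H/10T1/2 cells, a mouse line used as mesenchymal progenitor cells (MPCs). The members are all rows of the rRNA-depleted count table whose transposable element (TE) family is exactly ERV1. They number 72095 of the 3725827 TE loci and of the 3749927 rows in the table, and they fall into 149 subfamilies. Libraries were made from 3 lines with 3 libraries each: WT, an isogenic line given the Cas9 vector with no guide in it, the KO clone G7 made with the guide sg5, and the KO clone B10 made with the guide sg6. All lines grew in normal culture without differentiation cues. Each KO line is 1 clone, so a difference from WT includes whatever else differs between the lines, and both clones were compared with the same WT libraries. The labels do not say whether the 3 libraries of a line came from separate cultures, so the p-values measure only the spread between these libraries.

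ERV1 elements are class I endogenous retroviruses, relatives of the gammaretroviruses. A complete copy has an internal part, which carries the *gag*, *pol* and *env* genes or their remains, between a pair of long terminal repeats (LTRs) that hold the promoter and the polyadenylation signal, but many copies survive only as a solitary LTR. In mice the family includes murine leukemia virus (MuLV) sequences, the VL30 elements and the GLN elements, and it is silenced by DNA methylation and by H3K9me3 placed by SETDB1 with TRIM28. ATRX partners with DAXX, a chaperone that places H3.3, a variant of histone H3, in such heterochromatin, and the comparison asks whether ERV1 RNA changes when *Atrx* is lost. In the subfamily names used here, "-int" marks an internal part and the other names are LTRs.

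The 9 rRNA-depleted libraries held 20135336 to 33187136 counts each. TE loci took 10.4% to 12.1% of the counts in the KO libraries, 11.8% and 12.3% in WT replicates 1 and 2, and 15.5% in WT replicate 3, which had the highest total count and stood apart from the others. ERV1 loci took 827 to 1240 counts per 1000000 counts of the library (CPM) before scaling, again with WT replicate 3 highest. The targeted gene was lower in every KO library: *Atrx* was at 222, 192 and 231 CPM, now scaled by the TMM method, in the WT libraries, 112, 60.8 and 73.9 in sg5, and 101, 75.6 and 83.6 in sg6. Among 11 markers of mesenchymal progenitors, 10 were high enough to test. Their summed level was 6132 to 7842 CPM in WT and 8181 to 11706 CPM in the KO libraries, all above WT, although *Nt5e* stayed below 0.4 CPM in every library and *Thy1* was at 0.310 ± 0.119 CPM in WT and 28.1 ± 5.24 in sg6 (SD, n = 3). Of 11 markers of blood, endothelial, epithelial and pluripotent cells, *Cdh1* was the one tested and *Cd3e* had 0 counts in all libraries. Their summed level was 2.01 to 3.36 CPM in WT, mostly from *Cdh1*, and 0.387 to 0.646 CPM in the KO libraries. The part of these marker differences in the results below was not tested. In bulk RNA, fewer cells with a transcript and less of it per cell cannot be told apart.

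**Figure D1:**
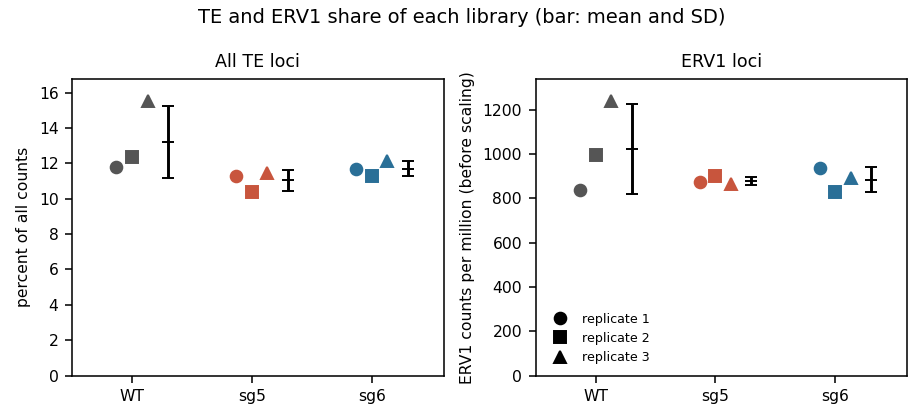
Percent of all counts on TE loci (left) and ERV1 counts in CPM before scaling (right) in each rRNA-depleted library of WT, sg5 and sg6; points are libraries and bars are the mean and SD of 3 libraries. WT replicate 3 has the highest value in both panels, 15.5% and 1240, and the other WT libraries lie near the KO libraries.

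ERV1 RNA was spread thinly over many loci. Of the 72095 loci, 12080 (16.8%) had a count in any library and 60015 had none, and single libraries detected 3998 to 6342 loci. Only 586 loci (0.813%), 143 internal and 443 LTR, passed the filter on low counts and were tested one by one. They held 52.7% of the 221879 ERV1 counts. Because a locus can pass this filter through the line in which it is high, counts and medians over the tested loci describe them and do not stand for the family. The locus with the most counts, RLTR4_MM-int_dup328, alone took 4.75% of the family's counts, the top 10 loci took 13.4% and the top 100 took 28.7%.

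Summed by subfamily, 108 of 149 subfamilies passed the filter and 6 had no count at all. The 10 highest took 49.6% of the ERV1 counts. RMER5 and MLTR14, LTR subfamilies with 7418 and 6798 copies, took 10.2% and 8.83%, and the MuLV internal part RLTR4_MM-int took 8.43% from 126 copies with a count. RLTR6-int, RLTR4_Mm, MMVL30-int and MMERGLN-int followed with 4.17%, 4.01%, 4.10% and 3.77%. Lengths of the loci are not in the table, so these shares say which subfamilies supply counts, not which copies are most active.

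The family as a whole did not pass the test in either clone. Total ERV1 RNA was 813, 963 and 1208 CPM in WT, 863, 905 and 893 CPM in sg5, and 929, 868 and 914 CPM in sg6. The KO libraries lay inside the range of the WT libraries. Against WT, the log2 fold change came to −0.16 (SE 0.14, *P*adj = 0.440) in sg5 and −0.14 (SE 0.14, *P*adj = 0.584) in sg6, where SE is the standard error and *P*adj the Benjamini-Hochberg adjusted p from the edgeR quasi-likelihood fit. Its sign rested on scaling and on 1 library: with scaling factors taken from TE rows alone, which shifts the totals up by 0.20 and 0.18, the values were 0.04 and 0.05, and without WT replicate 3 they were −0.00 and 0.02.

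The other ERV families gave similar values. ERVK, ERVL and ERVL-MaLR totals had log2 fold changes of −0.27, −0.22 and −0.23 in sg5 and of −0.20, −0.19 and −0.19 in sg6, with overlapping libraries throughout. The log2 ratio of ERV1 to each of these families was higher in the clones than in WT by 0.04 to 0.10. None of the 6 ratios passed a 2-sided exact permutation test (*p* = 0.2 to 0.7, all adjusted to 0.7), which cannot go below 0.1 with 3 libraries against 3.

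**Figure D2:**
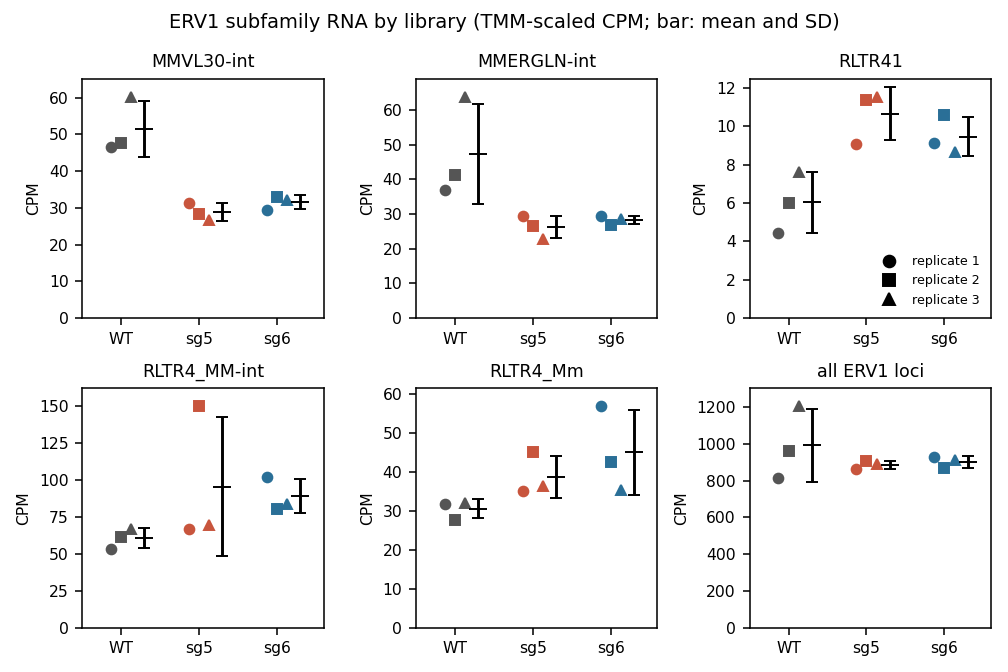
Level in CPM (TMM-scaled, axes from 0) of 5 ERV1 subfamilies and of all ERV1 loci in each library of WT, sg5 and sg6; points are libraries and bars are the mean and SD of 3 libraries. MMVL30-int and MMERGLN-int are lower in all 6 KO libraries than in any WT library, RLTR41 and RLTR4_Mm are higher in all 6, RLTR4_MM-int has 1 sg5 library at 150 CPM, and the family total overlaps.

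Below the level of the family, the internal subfamilies MMVL30-int, from VL30 elements, and MMERGLN-int, from GLN elements, fell in both clones. VL30 elements are retrotransposons that lack intact viral genes and depend on a helper virus to be packaged, and GLN elements are proviruses named after the glutamine tRNA that primes their reverse transcription. Over all tested subfamilies of the family, 1 was higher (0.926%) and 3 were lower (2.78%) in sg5, and 0 were higher and 2 lower (1.85%) in sg6, all at *P*adj below 0.05, with 0 higher and 2 lower in both. For comparison, among all 14310 genes and TE subfamilies tested, 8.57% were higher and 8.18% lower in sg5, 5.74% and 5.79% in sg6, and 3.84% and 4.12% in both. Among the 1007 TE subfamilies of every kind, the shares were 0.497% and 2.58% in sg5, 0.199% and 2.09% in sg6, and 0% and 1.29% in both. The share of ERV1 subfamilies called was therefore below that of the whole table and near that of other TE subfamilies.

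MMVL30-int, the internal part of VL30, was at 46.5, 47.6 and 60.3 CPM in WT, 31.4, 28.4 and 26.6 CPM in sg5, and 29.5, 33.1 and 32.2 CPM in sg6. The lowest WT library lay above the highest KO library. The log2 fold change was −0.84 (SE 0.13, *P*adj = 0.00268) in sg5 and −0.71 (SE 0.13, *P*adj = 0.00741) in sg6, from edgeR. Without WT replicate 3 it was −0.71 (*P*adj = 0.00985) and −0.58 (*P*adj = 0.0272). With scaling factors from TE rows alone, an alternative chosen after seeing the data, it was −0.61 (*P*adj = 0.0583) and −0.52 (*P*adj = 0.137), so the calls are lost when TEs are compared only with each other. RLTR6_Mm, the LTR of VL30, was at 6.65 ± 2.44 CPM in the WT line, 5.11 ± 1.13 in the sg5 clone and 3.83 ± 0.169 in the sg6 clone (SD, n = 3). Its sg5 libraries overlapped with WT and its sg6 libraries lay below, with log2 fold changes of −0.38 (*P*adj = 0.355) and −0.80 (*P*adj = 0.0934) that did not pass. The internal subfamily RLTR6-int, which shares a name with this LTR, had −0.01 and −0.07 and also did not pass.

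MMERGLN-int, the internal part of GLN, was at 37.0, 41.1 and 63.9 CPM in WT, 29.4, 26.7 and 23.0 CPM in sg5, and 29.3, 26.9 and 28.5 CPM in sg6. The groups did not overlap, but WT replicate 3 lay far above the other WT libraries. The log2 fold change was −0.85 (SE 0.20, *P*adj = 0.0182) in sg5 and −0.75 (SE 0.20, *P*adj = 0.0380) in sg6. Without WT replicate 3 it was −0.57 (*P*adj = 0.0351) and −0.47 (*P*adj = 0.0887), and without MMERGLN-int_dup141, which supplies 19.3% of the subfamily's counts, −0.59 (*P*adj = 0.0433) and −0.40 (*P*adj = 0.179) in edgeR's test. With scaling from TE rows alone the values were −0.59 (*P*adj = 0.0846) and −0.53 (*P*adj = 0.161). The LTR of the same element, MMERGLN_LTR, was at 6.90 ± 0.239 CPM in WT cells, 5.72 ± 0.370 in the sg5 clone and 6.62 ± 1.42 in the sg6 clone (SD, n = 3) and did not pass (*P*adj = 0.329 and 0.877).

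MuLV subfamilies had higher values in the clones that did not pass the test. RLTR4_MM-int, the MuLV internal part, was at 53.5, 61.4 and 67.1 CPM in WT, 67.0, 150.0 and 69.4 CPM in sg5, and 102, 80.6 and 83.8 CPM in sg6. All sg6 libraries lay above WT, whereas sg5 overlapped with WT and owed its mean to replicate 2. The log2 fold changes of 0.65 (SE 0.28, *P*adj = 0.144) and 0.55 (SE 0.28, *P*adj = 0.264) did not pass edgeR's test. Without sg5 replicate 2, the sg5 value was 0.19 (*P*adj = 0.456) and the sg6 value 0.55 (*P*adj = 0.0361). The MuLV LTR, RLTR4_Mm, was at 31.8, 27.7 and 32.2 CPM in WT, 35.1, 45.0 and 36.5 in sg5, and 57.0, 42.7 and 35.5 in sg6. Every KO library exceeded every WT library, with log2 fold changes of 0.35 (*P*adj = 0.211) and 0.56 (*P*adj = 0.0746) that did not pass.

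Outside these groups, RLTR41 and MER90 passed in sg5 alone. RLTR41, an LTR, was at 4.47, 5.99 and 7.64 CPM in WT, 9.07, 11.4 and 11.6 in sg5, and 9.12, 10.6 and 8.67 in sg6. Its log2 fold change was 0.82 (SE 0.21, *P*adj = 0.0279) in sg5 and 0.65 (SE 0.21, *P*adj = 0.0812) in sg6, and KO and WT libraries did not overlap. Without the locus RLTR41_dup1093, which supplies 29.0% of the subfamily's counts, the sg5 value dropped to 0.09 (*P*adj = 0.795), so the subfamily call rested on 1 locus. It passed in 5 of the 9 fits that leave out a library. MER90 was at 2.91, 3.53 and 3.13 CPM in WT, 1.76, 1.67 and 2.22 in sg5, and 2.86, 2.67 and 2.24 in sg6, with log2 fold changes of −0.76 (*P*adj = 0.0390) and −0.30 (*P*adj = 0.420). It kept to *P*adj below 0.05 in 7 of 18 other settings.

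Of the 10 most abundant ERV1 subfamilies, RMER5, MLTR14, RLTR6-int, RLTR1B-int and RLTR14-int overlapped with WT in both clones. RMER5 libraries ran from 80.5 to 125 CPM in the WT line, 87.0 to 93.9 in the sg5 clone and 85.4 to 96.4 in the sg6 clone. MLTR14 ran from 66.7 to 107 CPM in WT and from 74.5 to 86.5 over both clones, and RLTR6-int from 35.3 to 46.2 CPM in WT and from 35.5 to 42.0 over both clones. None of these passed in either clone, and RLTR14-int had log2 fold changes of −0.36 (*P*adj = 0.167) and −0.37 (*P*adj = 0.202). RMER2, with −0.34 (*P*adj = 0.0995) and −0.37 (*P*adj = 0.0943), and RLTR14, with −0.16 (*P*adj = 0.363) and −0.19 (*P*adj = 0.347), had all KO libraries below WT and did not pass either. RLTR1B, the LTR that shares a name with RLTR1B-int, had −0.52 (*P*adj = 0.0992) and −0.58 (*P*adj = 0.0906), and without RLTR1B_dup297, its locus with the most counts, −0.19 and −0.16. The median log2 fold change of the 108 ERV1 subfamilies was −0.22 in sg5 and −0.23 in sg6, beside −0.24 and −0.20 for all TE subfamilies and 0.03 and 0.01 for genes.

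**Figure D3:**
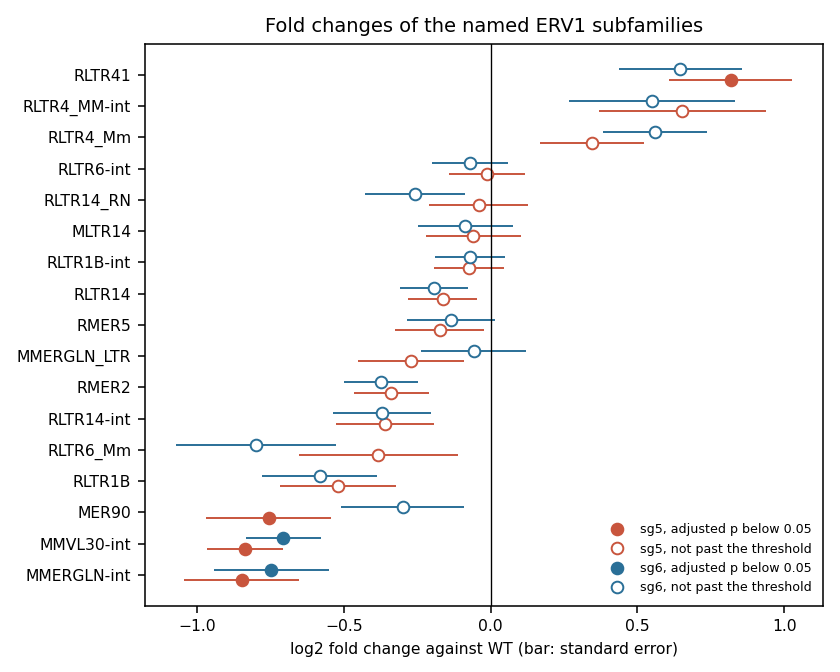
Log2 fold change of sg5 (red) and sg6 (blue) against WT for 17 ERV1 subfamilies, with standard errors from edgeR; filled points have an adjusted p below 0.05. MMVL30-int and MMERGLN-int are filled in both clones, RLTR41 and MER90 in sg5 alone, and the MuLV subfamilies RLTR4_MM-int and RLTR4_Mm lie to the right of 0 without passing.

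Tested one by one, few loci passed. In sg5, 5 of 586 loci were higher (0.853%) and 10 lower (1.71%), where 1.82% and 2.06% of all 56086 features tested and 0.638% and 1.11% of all TE loci tested did so. In sg6, 4 were higher (0.683%) and 15 lower (2.56%), against 1.18% and 1.72% of all features and 0.439% and 0.996% of TE loci. In both clones, which share the WT libraries, 3 loci were higher (0.512%) and 8 lower (1.37%), against 0.729% and 1.16% of all features and 0.236% and 0.615% of TE loci. Each share lay above that of TE loci, and below that of all features except for lower loci in sg6 and in both clones, but these are few loci. Of the 143 internal loci, 5.59% were lower in sg5, 6.99% in sg6 and 4.20% in both. Of the 443 LTR loci, 0.451%, 1.13% and 0.451% were. Of the 8 lower loci 6 are internal parts, 4 from MMVL30-int and 2 from MMERGLN-int, and the 3 higher loci are LTRs.

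All 11 loci called in both clones had every KO library beyond every WT library. Their selection by these same libraries favours this, so it adds no support. Of all 586 tested loci, 70 lay below and 51 above every WT library in sg5, and 65 and 43 in sg6. The same was not counted for all features or all TE loci, so these numbers do not set ERV1 apart. Most of the 11 loci lost their call in at least 1 clone when 1 WT library was left out. Without WT replicate 1, 2 or 3, the loci called in both clones numbered 2, 1 and 1 higher and 1, 3 and 0 lower. Without WT replicate 3, the 8 lower loci kept log2 fold changes of −1.43 or below in sg5 and −1.49 or below in sg6, and their *P*adj values ran from 0.0330 to 0.302 and from 0.0556 to 0.317. Leaving out sg6 replicate 1 or 3 left 2 lower loci in both clones, and sg6 replicate 2 left 4. Reads that align to several copies were shared among them by the authors' counting, so a count of a young copy can hold reads of its near-identical relatives. Without coordinates or the strand setting, reads of a locus and of a gene that contains it cannot be told apart.

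Among MMVL30-int loci, MMVL30-int_dup735 had 56, 70 and 133 counts in WT, 21, 12 and 32 in sg5, and 18, 30 and 18 in sg6. The log2 fold changes were −1.67 (SE 0.33, *P*adj = 0.0106) and −1.70 (SE 0.33, *P*adj = 0.0111) in edgeR. This was the most abundant of the 4 MMVL30-int loci called in both clones, and the others had at most 12 counts in any KO library. MMVL30-int_dup688 had 34, 29 and 56 counts in WT, 1, 4 and 5 in sg5, and 1, 7 and 10 in sg6, with log2 fold changes of −3.20 and −2.45. MMVL30-int_dup45 had 26, 20 and 45 counts in WT, 3, 0 and 3 in sg5, and 6, 5 and 4 in sg6, with −3.56 and −2.31.

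MMVL30-int_dup845 had 36, 38 and 76 counts in WT, 7, 11 and 9 in sg5, and 1, 9 and 12 in sg6, with log2 fold changes of −2.09 and −2.48. A further locus, MMVL30-int_dup885, passed in sg5 alone, with 53, 147 and 126 counts in WT, 30, 23 and 30 in sg5, and 51, 85 and 51 in sg6. MMVL30-int copies did not move as a block. The MMVL30-int locus with the most counts, MMVL30-int_dup815, named here after its values were seen, had 75, 85 and 143 counts in WT, 100, 91 and 102 in sg5, and 86, 126 and 125 in sg6. Fold changes on the log2 scale were 0.30 (*P*adj = 0.595) and 0.41 (*P*adj = 0.551), and without it the subfamily fell by 0.96 and 0.83. Over the 24 MMVL30-int loci tested the median was −0.86 in sg5 and −0.85 in sg6, and the range ran from −3.56 to 0.30 and from −3.51 to 0.53. Of these loci 5 (20.8%) were called lower in sg5 and 4 (16.7%) in sg6, and 0 were called higher. Of all features tested 2.06% and 1.72% were called lower, and of all TE loci tested 1.11% and 0.996%. A locus that passes the filter through its WT counts is favoured to be called lower, so these shares describe the tested loci only. Counted together with the RLTR6-int, RLTR6_Mm and RLTR6B_Mm loci, 53 in all, the medians were −0.23 and −0.43, and no locus outside MMVL30-int was called. In the 9 fits that leave out a library, the sg5 and sg6 calls held 7 and 6 times for dup735, 8 and 4 for dup688, 9 and 4 for dup45, and 3 and 6 for dup845.

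Among GLN loci, MMERGLN-int_dup141 had 263, 219 and 702 counts in WT, 178, 38 and 50 in sg5, and 70, 49 and 41 in sg6. The log2 fold changes were −1.83 (SE 0.45, *P*adj = 0.0389) and −2.56 (SE 0.47, *P*adj = 0.00772). WT replicate 3 and sg5 replicate 1 were the highest libraries of their lines. They were the highest also at MMERGLN-int_dup140, with 85, 101 and 284 counts in WT, 72, 17 and 13 in sg5 and 16, 14 and 4 in sg6, and at MMERGLN-int_dup143, with 42, 63 and 109 in WT, 31, 4 and 11 in sg5 and 11, 2 and 9 in sg6. Both passed in sg6 alone (log2 fold changes −3.46 and −2.95), as did the LTR locus RLTR1B_dup297, with 113, 105 and 308 counts in WT, 92, 12 and 18 in sg5 and 28, 8 and 18 in sg6. Whether these 4 loci are pieces of 1 provirus was not tested, since the table gives no positions.

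MMERGLN-int_dup95 had 20, 27 and 41 counts in WT, 0, 2 and 2 in sg5, and 2, 6 and 3 in sg6, with log2 fold changes of −4.01 (*P*adj = 0.00307) and −2.71 (*P*adj = 0.0175). It passed in sg5 in all 9 fits that leave out a library, and in sg6 in 4 of them. MMERGLN-int_dup759 had 12, 9 and 19 counts in WT and 0, 0 and 1 in sg5, where it passed, but 4, 18 and 3 in sg6. GLN loci also moved the other way: MMERGLN-int_dup223 had 16, 59 and 58 counts in WT, 49, 63 and 31 in sg5 and 138, 124 and 103 in sg6, and it rose in sg6 with a log2 fold change of 1.73 (*P*adj = 0.0389). This call held in 4 of the 9 fits that leave out a library, and those of MMERGLN-int_dup141 in 4 for sg5 and 8 for sg6. Over the 22 MMERGLN-int loci tested, sg5 had a median of −0.81 and sg6 one of −0.26, and with the 4 MMERGLN_LTR loci these were −0.63 and −0.12.

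The remaining loci lower in both clones were LTRs with few counts. LTRIS2_dup317 had 11, 12 and 29 counts in WT, 0, 0 and 2 in sg5, and 1, 0 and 0 in sg6. RMER21B_dup275 had 17, 20 and 36 counts in WT, 0, 1 and 3 in sg5, and 3, 4 and 2 in sg6. LTRIS2_dup317 lost its sg5 call in each of the 9 fits that leave out a library, and at such counts its fold change rests on a handful of reads. The log2 fold changes of RMER21B_dup275 were −3.75 (*P*adj = 0.00734) and −2.71 (*P*adj = 0.0300), and these calls held in 8 and 3 of the 9 fits.

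Among loci higher in both clones, RLTR41_dup1093 had 6, 19 and 6 counts in WT, 82, 117 and 131 in sg5, and 69, 104 and 59 in sg6. This gave log2 fold changes of 3.71 (SE 0.46, *P*adj = 0.000341) and 3.07 (SE 0.46, *P*adj = 0.00160). This locus passed in both clones in all 9 fits that leave out a library. MLTR14_dup6720 had 6, 6 and 3 counts in WT, 34, 46 and 58 in sg5, and 28, 35 and 12 in sg6, with log2 fold changes of 3.46 (*P*adj = 0.00120) and 2.47 (*P*adj = 0.0175), and its sg6 call held in 6 of those fits. The MuLV LTR locus RLTR4_Mm_dup193 had 1, 1 and 4 counts in WT, 7, 14 and 18 in sg5, and 23, 6 and 16 in sg6, with 2.98 (*P*adj = 0.0399) and 3.12 (*P*adj = 0.0350). It kept its calls in 3 and 4 of the 9 fits that leave out a library.

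**Figure D4:**
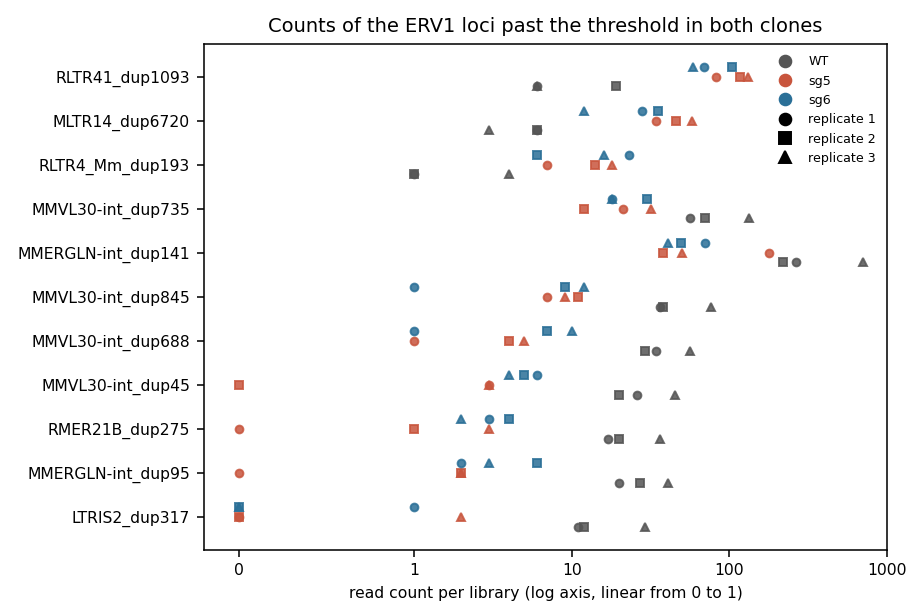
Read counts per library (log axis, linear from 0 to 1) at the 11 ERV1 loci with an adjusted p below 0.05 in both clones; colours are WT, sg5 and sg6 and symbols are replicates, without correction for library size. The 3 upper loci have fewer counts in every WT library than in any KO library, and the 8 lower loci have more.

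Of the 23 loci called in any comparison with WT, 12 passed in 1 clone alone. LTR37B_dup228 rose in sg5, with 4, 2 and 2 counts in WT, 22, 13 and 22 in sg5 and 18, 4 and 9 in sg6. LTR72_RN_dup171 had 12, 11 and 17 counts in WT, 1, 0 and 0 in sg5 and 0 in every sg6 library. It was at least 3.77-fold lower in sg6 when a floor of 3 counts per library stands for 0, but it passed in 0 of the 9 fits that leave out a library (*P*adj 0.0513 to 0.221). The internal loci MuRRS-int_dup844 (14, 15 and 34 counts in WT, 10, 3 and 5 in sg5, and 0, 0 and 2 in sg6) and MuRRS-int_dup861 (32, 24 and 33 in WT, 45, 16 and 13 in sg5, and 6, 1 and 1 in sg6) fell in sg6. The LTR locus RLTR30E_MM_dup213 also fell in sg6, from 9, 26 and 37 counts in WT to 4, 2 and 4, with 15, 10 and 7 in sg5. In the same 9 fits, calls held 7 times for LTR37B_dup228, 8 and 6 times for MuRRS-int_dup844 and MuRRS-int_dup861, and 4 times for RLTR30E_MM_dup213.

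A call in 1 clone alone does not show that the clones differ. Compared directly, sg5 and sg6 differed at 0 of 586 ERV1 loci in edgeR's test, where 0.216% of all features and 0.103% of TE loci were higher in sg5, and 0.275% and 0.0514% higher in sg6. An unadjusted p below 0.05 was found at 43 loci (7.34%), beside 7.98% of all features and 6.27% of TE loci. DESeq2 called 1 locus. Of the 108 subfamilies, 0 differed between the clones, where 0.615% and 1.32% of genes and TE subfamilies, and 0% and 0.397% of TE subfamilies alone, were higher in sg5 and in sg6. The smallest *P*adj among the loci named here was 0.0607, at MuRRS-int_dup861, with a log2 difference of 3.19 (SE 0.67) between sg5 and sg6.

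None of the 5 loci with the highest mean level was called lower. RLTR4_MM-int_dup328, the MuLV locus with the most counts, was at 32.4, 36.1 and 36.6 CPM in WT, 33.0, 84.0 and 37.7 in sg5, and 68.7, 53.0 and 50.6 in sg6, with log2 fold changes of 0.56 (*P*adj = 0.344) and 0.71 (*P*adj = 0.287). RLTR4_MM-int_dup427 was at 9.85, 10.5 and 12.8 CPM in WT, 18.8, 51.7 and 16.6 in sg5, and 19.6, 14.4 and 17.5 in sg6. All of its KO libraries exceeded WT, and it rose in sg5 with a log2 fold change of 1.39 (SE 0.35, *P*adj = 0.0394), with 0.64 (*P*adj = 0.496) in sg6. Without sg5 replicate 2 the sg5 value was 0.74 (*P*adj = 0.101), and without WT replicate 1, 2 or 3 its *P*adj was 0.110, 0.121 and 0.108. The MuLV LTR locus RLTR4_Mm_dup196 had 0.55 (*P*adj = 0.268) and 0.82 (*P*adj = 0.111). Its neighbour in number, RLTR4_Mm_dup195, had −0.08 (*P*adj = 0.911), a sign that flips with scaling from TE rows alone, and 0.64 (*P*adj = 0.190). LTRIS3_dup128, which holds 90.2% of the LTRIS3 counts, was at 7.53, 5.97 and 6.79 CPM in WT, 18.2, 8.08 and 7.38 in sg5, and 23.0, 9.32 and 12.7 in sg6, and replicate 1 was the highest library of each clone.

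Over all 586 tested loci the median log2 fold change was −0.12 in sg5 and −0.06 in sg6, beside −0.12 and −0.08 for all TE loci tested and 0.08 and 0.04 for genes. Internal loci had medians of −0.26 and −0.18 and LTR loci of −0.07 and −0.03. RLTR4_MM-int loci had medians of 0.66 and 0.09 over 17 loci and RLTR4_Mm loci of 0.12 and −0.17 over 11.

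**Figure D5:**
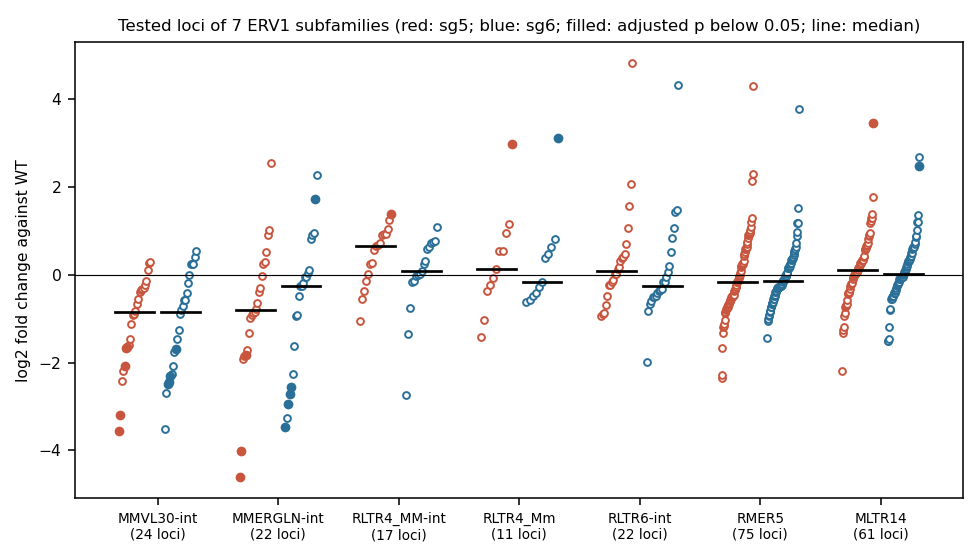
Log2 fold change against WT of each tested locus in 7 ERV1 subfamilies, sorted within each clone; red is sg5, blue is sg6, filled points have an adjusted p below 0.05 and black lines are medians. Most MMVL30-int loci lie below 0, with medians of −0.86 and −0.85, and the RMER5 and MLTR14 loci spread around 0.

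Genes known to silence or restrict gammaretroviral sequences, and receptors of murine leukemia viruses, were read from the same libraries. Of 43 such genes 39 were tested, together with single TE loci. In sg5, 2 rose and 2 fell, where 1.82% and 2.06% of all genes and TE loci tested did. In sg6, 1 rose and 1 fell, where 1.18% and 1.72% did. Of those 56086 features 42783 were TE loci, so these shares are not those of genes alone. *Tasor*, a subunit of the HUSH silencing complex, was at 32.5, 29.6 and 34.4 CPM in WT libraries, 64.6, 53.9 and 55.7 in sg5, and 54.4, 53.7 and 59.9 in sg6, and rose in both clones. The log2 fold changes were 0.85 (*P*adj = 0.00352) and 0.80 (*P*adj = 0.00637), and KO and WT did not overlap. *Mphosph8*, the HUSH subunit that reads H3K9me3, had log2 fold changes of 1.19 (*P*adj = 0.00469) in sg5 and 0.64 (*P*adj = 0.160) in sg6. *Cbx1*, which encodes the heterochromatin protein HP1β, had −0.70 (*P*adj = 0.00965) and −0.51 (*P*adj = 0.0695), and *Atrx* itself −1.39 (*P*adj = 0.00138) and −1.31 (*P*adj = 0.00227). In the 9 fits that leave out a library, *Cbx1* passed in sg5 in 3 and *Tasor* in sg6 in 7.

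The polyA-selected libraries of the same lines, 9 in all, gave the same genes at greater depth. Of the 43 genes 42 were tested, of which 4 rose and 6 fell in sg5, where 13.6% and 13.4% of all genes tested did, and 3 rose and 7 fell in sg6, where 16.1% and 14.6% did. In both clones 3 genes rose and 4 fell, where 10.5% and 9.70% of all genes did. *Mphosph8* (log2 fold changes 0.87 and 0.83), *Tasor* (0.70 and 0.61) and *Atf7ip*, a SETDB1 cofactor (0.61 and 0.40), rose in both. *Atrx* (−1.24 and −1.20), *Cbx1* (−0.66 and −0.60), *H3f3b*, which encodes H3.3 (−0.61 and −0.69), and the zinc finger gene *Gm10324* (−0.94 and −1.65) fell in both. In the rRNA-depleted libraries *H3f3b* did not pass (−0.10, *P*adj = 0.820, and −0.35, *P*adj = 0.423). *H3f3a*, which also encodes H3.3, passed in neither kind of library, with −0.03 and 0.09 in polyA and 0.50 and 0.16 in rRNA-depleted RNA. The sg5 call of *Gm10324* held in 3 of the 9 fits that leave out a library (*P*adj up to 0.203) and the sg6 call of *Atf7ip* in 4 (*P*adj up to 0.109). *Bst2*, which encodes the restriction factor tetherin, rose in sg5 alone (1.17, *P*adj = 0.00174), and there the clones differed directly (1.11, *P*adj = 0.00771), where 2.11% of all genes were higher in sg5 and 2.67% in sg6. *Morc2a* (−0.21, *P*adj = 0.0437) and the restriction factor gene *Apobec3* (−0.38, *P*adj = 0.0471) fell in sg5 alone. *Cbx3* (−0.28, *P*adj = 0.0299), *Smarcad1* (−0.30, *P*adj = 0.0177) and *Syna* (−0.76, *P*adj = 0.0494) fell in sg6 alone. In the order given, these calls held in 1, 3, 3, 8 and 1 of the 9 fits that leave out a library. *Setdb1* (−0.01 and −0.15), *Trim28* (−0.04 and −0.04) and *Zfp809*, a zinc finger gene that directs silencing to MuLV and VL30 sequences (0.03 and −0.02), did not pass in either kind of library.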

How the data were processed

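RNA of the rRNA-depleted libraries was aligned to mm10 by the authors with STAR (2.27.10a in the submitters' processing notes), keeping up to 100 alignments per read, and the deposited values are raw read counts per gene and TE locus in the row format of TElocal. The strand setting and the TE annotation release are not given in the sources used here, and loci carry no coordinates. For the polyA libraries, the authors deposited expected counts per gene from Salmon (0.8.2 in the submitters' notes) and tximport. They were whole numbers and were rounded again before testing. The totals were 27544833 to 235346363 expected counts, highest in sg5.

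Rows were assigned to ERV1 by name, and counts were analysed per locus, summed by subfamily and summed by family. Each table held genes and TEs together and went through edgeR 4.0.16 (R 4.3.3) with filterByExpr (minimum count 10, minimum total 15, large group size 10, minimum proportion 0.7), TMM scaling and the quasi-likelihood test, with all 9 libraries in 1 fit, no replicate block and Benjamini-Hochberg adjustment over all features tested. A feature was called at an adjusted p below 0.05. Gene symbols came from RefSeq by Entrez ID. The Wilson 95% intervals of TE shares and the floor of 3 counts cover counting error only. The 9 libraries were compared for duplicates, and none held identical values.

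Alternatives were DESeq2 1.42.0, median-of-ratios factors, TMM factors from genes alone or from TE rows alone, no filter, a minimum of 10 counts per library, fits of only WT and a clone, the replicate block, a log2 fold change beyond 1, sums without their top locus, and each library left out. The scripts were checked on simulated counts with 200 features changed in each table. Of these, 60 were found in both clones among genes and loci, 133 among genes and subfamilies, and 163 among polyA genes. A locus without a call therefore need not be unchanged. The members, lists and tests were chosen with earlier results of these data known. Named subfamilies were the 10 with the highest mean CPM, up to 5 highest and 5 lowest called in both clones without overlap, and those sharing a name stem. Named loci were up to 10 highest and 10 lowest chosen likewise and the 5 with the highest mean CPM. Named genes were listed genes called in either clone. *H3f3a*, *Setdb1*, *Trim28* and *Zfp809* were called in neither clone and were named outside this rule. RLTR41, MER90 and the loci called in 1 clone were added after their values were seen. Figures were drawn with matplotlib 3.10.9. No ERV1 sequence is printed, because positions and sequences of the loci were not analysed here.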

Additional observations from a re-analysis of the deposited data

How the results depend on the processing

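Depth limits the locus results: the tested loci are 0.813% of the family, many calls rest on fewer than 30 counts, and each line is 1 clone with 3 libraries. MMVL30-int passed in 17 of 18 other settings in each clone and MMERGLN-int in 15 in sg5 and 8 in sg6. Taking TMM factors from TE rows alone, chosen after seeing the data, moved subfamily values by a median of 0.23 in sg5 and 0.19 in sg6. It left 0 lower subfamilies in sg5, sg6 and both clones, gave 1 higher subfamily in sg6 and in both clones, 1 locus higher in sg5 than in sg6 and 1 lower silencing gene in sg5. It turned the family total to 0.0355 in sg5 and 0.0458 in sg6, RMER5 to 0.0618 and 0.0722, MLTR14 to 0.178 and 0.125, RLTR6-int to 0.217 and 0.124, RLTR1B-int to 0.135 and 0.115, RLTR14 to 0.0476, RLTR14_RN to 0.185 and RLTR4_Mm_dup195 to 0.00189 in sg5, and MMERGLN_LTR to 0.102 in sg6.

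In sg5, higher loci numbered 9 with DESeq2, 13 with no filter, 1 with at least 10 counts per library and 8 with the replicate block, and lower loci 17 with no filter and 4 with at least 10 counts. In sg6, higher loci numbered 9, 10, 0 and 8 in these settings and 7 with only WT and sg6 fitted, and lower loci 3 with at least 10 counts. In both clones, higher loci numbered 6 with no filter and 0 with at least 10 counts, and lower loci 13 with DESeq2 and 2 with at least 10 counts. DESeq2, no filter and the replicate block each gave 1 locus higher in sg5 than in sg6. For subfamilies, DESeq2 and the block each gave 5 lower in sg5, 2 higher in sg6 and 1 higher in both clones. At least 10 counts, fits of only WT and a clone, and sums without the top locus each left 1 lower subfamily in sg6 and in both clones. Fits of only WT and a clone gave 0 higher subfamilies in sg5 and 1 in sg6, sums without the top locus gave 0 higher in sg5 and RLTR1B-int 0.00715, and a log2 fold change beyond 1 left 0 subfamilies in either direction. Higher silencing genes in sg5 numbered 4 with the block, and lower ones 2 in sg6 and in both clones with the block or TMM factors from genes alone. The cause of these changes was not tested, except that a filter changes the number of features tested. Shares of all features called in these settings, or with a library left out, were not counted.

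The labels do not say whether the replicate numbers pair the libraries. Same-numbered libraries had correlations of 0.0554 to 0.268 between their deviations from the line means, and 4 of 9 were over 0.1. Libraries with different numbers had −0.231 to 0.145, and 8 of 9 libraries correlated best with their own number. The numbers may thus mark something shared, which the main fit without a block leaves out. With the replicate block, 4 loci were higher and 12 lower in both clones. The share of all features called with the block was not counted, so these numbers do not show a stronger ERV1 result.

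With each library left out in turn, loci numbered 2 to 7 higher and 3 to 11 lower in sg5, 1 to 9 higher and 2 to 17 lower in sg6, 1 to 3 higher and 0 to 9 lower in both clones, and 0 to 1 higher in sg5 than in sg6. Subfamilies numbered 0 to 1 higher and 2 to 5 lower in sg5, 0 to 1 higher and 1 to 3 lower in sg6, and 1 to 3 lower in both clones. Silencing genes numbered 1 to 2 lower in sg5 and 0 to 1 higher in sg6 and in both clones in rRNA-depleted RNA, and 3 to 6 lower in sg5 in polyA RNA. The family total ranged from −0.289 to −0.00329 in sg5 and from −0.263 to 0.0237 in sg6. Other values that changed sign ranged, in sg5, from −0.312 to 0.00861 for RMER5, −0.202 to 0.148 for MLTR14, −0.0866 to 0.112 for RLTR6-int, −0.134 to 0.0149 for RLTR1B-int, −0.136 to 0.148 for RLTR14_RN and −0.191 to 0.169 for RLTR4_Mm_dup195. In sg6 they ranged from −0.272 to 0.0481 for RMER5, −0.228 to 0.122 for MLTR14, −0.145 to 0.0541 for RLTR6-int, −0.118 to 0.0192 for RLTR1B-int, −0.249 to 0.0355 for MMERGLN_LTR and −0.0604 to 0.284 for *Bst2* in polyA RNA. None of these passed in the main test in that clone.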
